A study of Rattus norvegicus with 34 samples.

Results

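The kidney arrays of a monuron study in rats were examined. They are 8 Affymetrix rat arrays, 4 from kidneys labelled monuron and 4 from kidneys labelled control, chosen by their titles from the 34 arrays of the series; the other arrays hold livers of the study's rats and a cultured rat kidney cell line, NRK-52E. According to the submitters' design text, male Wistar-derived rats of 7 to 9 weeks and 190 to 240 g received monuron at 40 mg/kg on day 1 and 400 mg/kg on days 2 and 3, in corn oil at 5 ml/kg. Control rats of the same strain, sex and age received corn oil alone at 5 ml/kg. The text places the kill 72 hours after the last dose, whereas the title and the treatment label give 72 hours of exposure, so the interval is uncertain. The replicates are labelled biological, and each array is taken here as 1 rat.

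Monuron is a phenylurea herbicide known to cause kidney and liver tumours in male rats after long feeding. The renal cortex is mostly proximal tubule, whose cells reclaim filtered proteins through the receptors megalin and cubilin, take up organic anions and cations, and break down amino acids. After injury these cells are known to lower such functions, to expose the receptor Kim-1 (Havcr1) on their surface and to enter the cell cycle. Exposure to reactive chemicals is known to raise the targets of the transcription factor NRF2, among them quinone reductase and glutathione transferases.

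The tissue label was borne out by defining markers. Umod, the uromodulin of the thick ascending limb, lay between 15.26 and 15.52 on monuron-labelled and between 15.48 and 15.60 on control-labelled kidney arrays in log2 GCRMA signal, the scale of all levels below, against 2.34 to 3.09 on the liver arrays. Slc34a1, the proximal tubule phosphate transporter, lay between 15.33 and 15.58 in monuron-labelled and between 15.28 and 15.48 in control-labelled kidneys. The adrenal enzymes Cyp11a1 and Cyp11b1 lay at or under 2.24 on every kidney array. Markers of fat cells and macrophages were mixed in level. The fat cell hormone Adipoq lay between 2.15 and 3.49 in monuron-labelled and between 2.33 and 2.74 in control-labelled kidneys, and 1 of 7 fat cell genes tested rose and none fell. The macrophage receptor Csf1r reached 6.88 in monuron-labelled and 6.67 in control-labelled kidneys and was above the median on every array. Cd68, the other defining macrophage marker, was below the median on every kidney array. It reached 3.34 in monuron-labelled and 3.26 in control-labelled kidneys, against 7.01 to 8.27 in liver. Of 17 macrophage genes tested 1 rose and none fell. Over all genes tested 3.87% rose and 6.33% fell. The fat cell count kept its call without monuron replicate 2 or control replicate 2 and was 0 without any other array, and the macrophage count of genes that rose was 0 without any array but monuron replicate 4. Array medians were close to each other, from 3.90 to 3.95. Arrays correlated at 0.993 to 0.996 within a group and at 0.989 to 0.995 between groups, as a description over probe sets of 8 arrays.

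The direction of the labels needs a statement before any result. Havcr1, which encodes Kim-1 and is nearly silent in uninjured kidney, lay at 2.05, 2.01, 2.03 and 2.02 in monuron-labelled kidneys, against 8.11, 5.98, 7.23 and 6.62 in control-labelled kidneys. Every monuron-labelled value was at the dim end of the array and every control-labelled value was above the array median. Differences are given as monuron minus control throughout; for Havcr1 it was −4.96, and −3.06 when values below the array median were set to it. Havcr1 entered the test only through the control-labelled arrays, so these values are a description. Many mitotic genes, 12 of 24 NRF2 targets and 5 of 19 p53 targets also passed the threshold as lower in monuron-labelled kidneys, as described below. All directions here follow the deposited labels; whether the labels of the 2 groups were interchanged, in kidney or in liver, was not tested. The groups are therefore called monuron-labelled and control-labelled.

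Of 9538 named genes tested, 973 (10.2%) passed an adjusted p of 0.05 in limma with Benjamini-Hochberg adjustment, the threshold used throughout. Among them 369 (3.87% of the genes tested) were higher and 604 (6.33%) lower in monuron-labelled kidneys. A change of at least 2-fold was reached by 159 genes (1.67%), of which 57 (0.598%) were higher and 102 (1.07%) lower. The values of the 2 groups did not overlap for 1850 genes (19.4%). The median difference over all genes tested was −0.08. The count depended on which array was left out: 378 genes passed without monuron replicate 3, 347 without control replicate 3, 587 without monuron replicate 1 and 627 without control replicate 4, and 917 without monuron replicate 4.

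**Figure D1:**
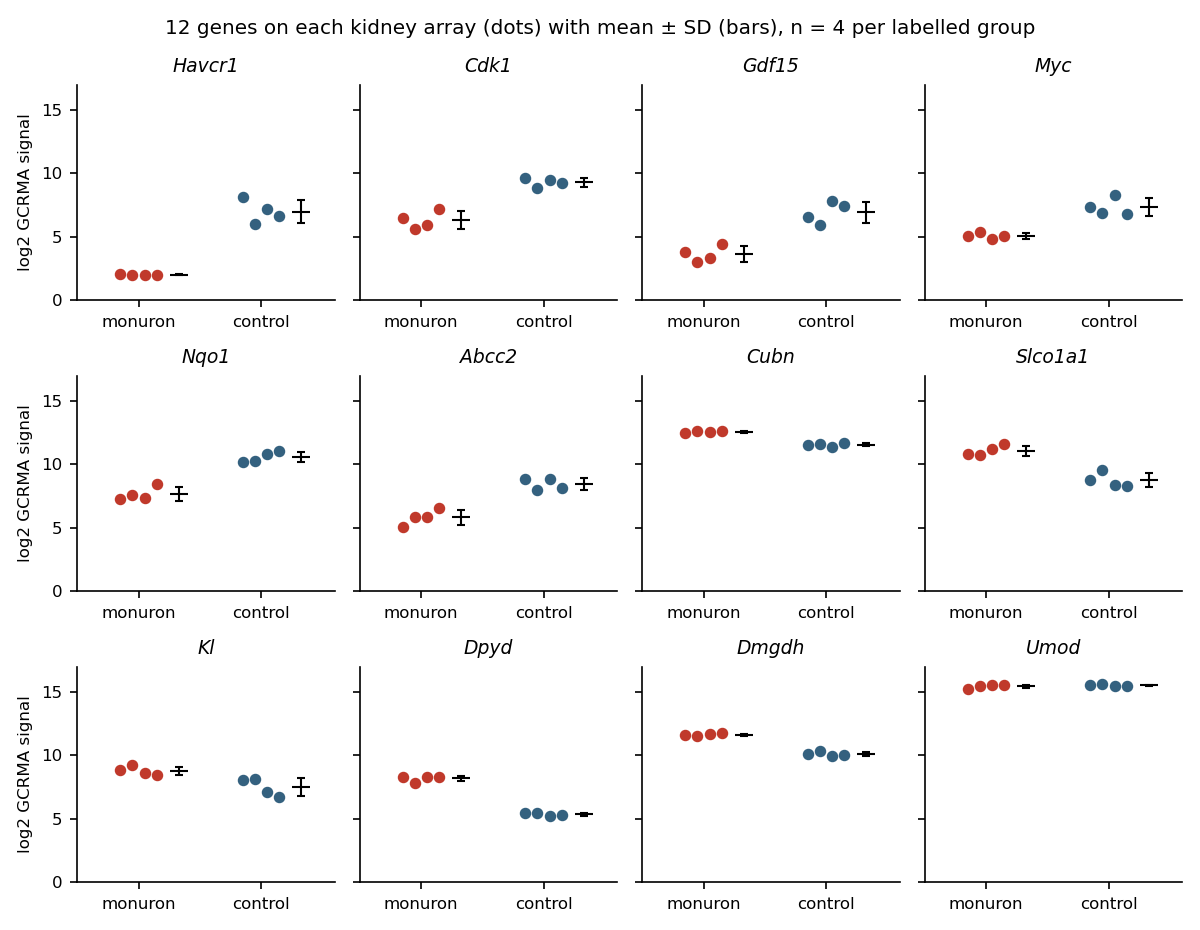
Log2 GCRMA signal (y axis) of 12 named genes on each of the 8 kidney arrays, with monuron-labelled arrays on the left and control-labelled arrays on the right of each panel; dots are arrays and the bar beside them is the mean with its SD (n = 4). Havcr1 lay between 2.01 and 2.05 in the monuron-labelled group and between 5.98 and 8.11 in the control-labelled group, while Umod lay above 15.2 on all 8 arrays.

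Mitotic genes were the list with the largest share of members past the threshold. Of 45 listed genes, 39 were on the array and 30 passed the filter on low signal. Of those 30, 28 fell in monuron-labelled kidneys and none rose, with a median difference of −2.45 against −0.08 over all genes tested. The shares over all genes tested were 6.33% lower and 3.87% higher. Only 14 of the 30 were above the array median on all 8 arrays, and 4 passed the filter through the control-labelled arrays alone, so the filter favoured a difference for these. Among the 14 that were above the median on every array, 12 fell, and with no filter 28 of all 39 fell. The members not past the threshold, named after their values were seen, were the kinesin Kif11 at −0.30 (adjusted p = 0.115) and the kinase Melk at 0.78 (adjusted p = 0.0882, and 0.0449 in the joint fit of kidney and liver arrays).

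Cdk1, the kinase that drives entry into mitosis, had 6.49, 5.60, 5.94 and 7.20 in monuron-labelled kidneys, against 9.65, 8.82, 9.48 and 9.21 in control-labelled kidneys. The groups were separated by more than 1 log2 unit, and the difference was −2.98 (SE 0.32, adjusted p = 0.00118). Pttg1, the securin that delays the separation of sister chromatids, had 4.73, 4.05, 4.07 and 4.66 in monuron-labelled kidneys and 7.47, 6.95, 7.76 and 7.27 in control-labelled kidneys (difference −2.98, SE 0.22, adjusted p = 0.000251). Its groups did not overlap. Kif22 and Knstrn also act in mitosis but are not on the list. Kif22, a chromosome-arm kinesin, had 4.07, 4.17, 3.86 and 4.70 in monuron-labelled kidneys, against 7.90, 6.99, 7.95 and 7.15 in control-labelled kidneys, a 9.83-fold difference (adjusted p = 0.00034). Knstrn, which helps position the spindle, was 10.4-fold lower, with 3.58, 2.85, 2.88 and 4.05 in monuron-labelled kidneys against 6.85, 6.16, 7.25 and 6.62 in control-labelled ones; several of its monuron-labelled values were below the array median, and the difference was −2.76 with such values set to the median. Mki67, the proliferation antigen Ki-67, averaged 6.33 ± 0.90 in monuron-labelled and 8.40 ± 0.22 in control-labelled kidneys (SD, n = 4 each). Its groups did not overlap. With 1 array left out, between 22 and 28 list members fell.

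The upstream sequences of mitotic genes are known to carry CCAAT boxes, bound by NF-Y, and CHR elements, bound by complexes that silence these genes outside the cell cycle. The 250 bases before the start site were searched on both strands for CCAAT and for the CHR letters TTTGAA or TTCGAA, in RefSeq promoters of the GRCr8 build. Of the 30 mitotic genes tested, 26 had a promoter sequence. CCAAT was found in 21 of the 26 (80.8%) against 34.3% of all 27457 promoters and 36.1% of the promoters of genes tested. Both motifs were found in 13 of the 26 (50%), against 6.22% of all promoters. The 3 members that held both motifs and had the largest differences are shown, 5′ to 3′ on the strand of the gene and ending at the base before the start site, with CCAAT (or its complement ATTGG) and the CHR in capitals. A match is only a description of these letters.
Prc1, chr1:143659231-143659480 (+ strand): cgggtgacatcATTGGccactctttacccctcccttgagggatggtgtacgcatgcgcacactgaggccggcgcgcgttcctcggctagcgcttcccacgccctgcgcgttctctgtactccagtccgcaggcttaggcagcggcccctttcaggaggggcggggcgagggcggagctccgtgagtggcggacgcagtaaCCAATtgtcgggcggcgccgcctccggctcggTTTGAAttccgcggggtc
Cdc20, chr5:137255800-137256049 (- strand): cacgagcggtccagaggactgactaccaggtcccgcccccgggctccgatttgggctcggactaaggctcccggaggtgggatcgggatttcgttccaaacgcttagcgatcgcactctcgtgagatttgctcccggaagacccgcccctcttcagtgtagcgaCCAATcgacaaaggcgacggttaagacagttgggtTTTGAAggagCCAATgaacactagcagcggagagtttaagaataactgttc
Hmmr, chr10:25665216-25665465 (- strand): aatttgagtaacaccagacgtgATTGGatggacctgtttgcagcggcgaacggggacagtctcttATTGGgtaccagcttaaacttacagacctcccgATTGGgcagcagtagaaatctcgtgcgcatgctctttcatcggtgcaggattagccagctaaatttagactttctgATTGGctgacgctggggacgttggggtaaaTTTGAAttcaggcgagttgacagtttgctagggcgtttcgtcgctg

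In Prc1, which encodes a crosslinker of spindle microtubules, the last base of the CHR lay 13 bases before the start site; the gene had 4.55, 3.11, 3.42 and 4.99 in monuron-labelled kidneys, against 7.66, 6.93, 8.04 and 6.89 in control-labelled kidneys. The groups of Prc1 were almost 2 log2 units apart at their nearest values. Cdc20, the activator of the anaphase-promoting complex, held its CHR between 2 CCAAT boxes, and had 2.52, 2.36, 2.92 and 2.90 in monuron-labelled kidneys against 6.77, 5.30, 6.04 and 5.71 in control-labelled ones. All 4 monuron-labelled Cdc20 values were below the array median, so that the gene entered the test only through the control-labelled arrays and its difference of −3.28 became −2.03 with values set to the median. Hmmr, a hyaluronan receptor that also binds the spindle, held 4 CCAAT boxes and averaged 3.31 ± 0.74 in monuron-labelled and 6.33 ± 0.26 in control-labelled kidneys (SD, n = 4 each).

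Genes of DNA replication moved less. Of 32 tested, 10 fell and 1 rose, with a median difference of −0.49. Over all genes tested 6.33% fell and 3.87% rose. Of the 32, 29 were above the array median on all 8 arrays, and 1 passed the filter through the control-labelled arrays alone. Among those 29, 8 fell and 1 rose, and with no filter 8 of 44 fell and 1 rose. Mcm7, a subunit of the replicative helicase, had 8.13, 8.42, 8.26 and 8.40 in monuron-labelled kidneys, against 9.11, 8.90, 9.12 and 9.16 in control-labelled kidneys, a difference of −0.77 (adjusted p = 0.00249) with no overlap. Cdt1, the licensing factor, was 2.94-fold lower (adjusted p = 0.0126), and Pcna, the sliding clamp, was 1.48-fold lower (adjusted p = 0.0165). Prim2, the large primase subunit, went the other way, with 8.88, 8.47, 8.76 and 9.21 in monuron-labelled and 7.86, 8.35, 7.74 and 7.63 in control-labelled kidneys (difference 0.93, adjusted p = 0.0163). The count of replication genes that fell was 4 without control replicate 3, 5 without monuron replicate 3 and 6 without monuron replicate 1 or 2. Pcna lost its call without monuron replicate 3 or control replicate 3 (highest adjusted p 0.0573), and Prim2 without control replicate 3 (adjusted p = 0.0577).

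**Figure D2:**
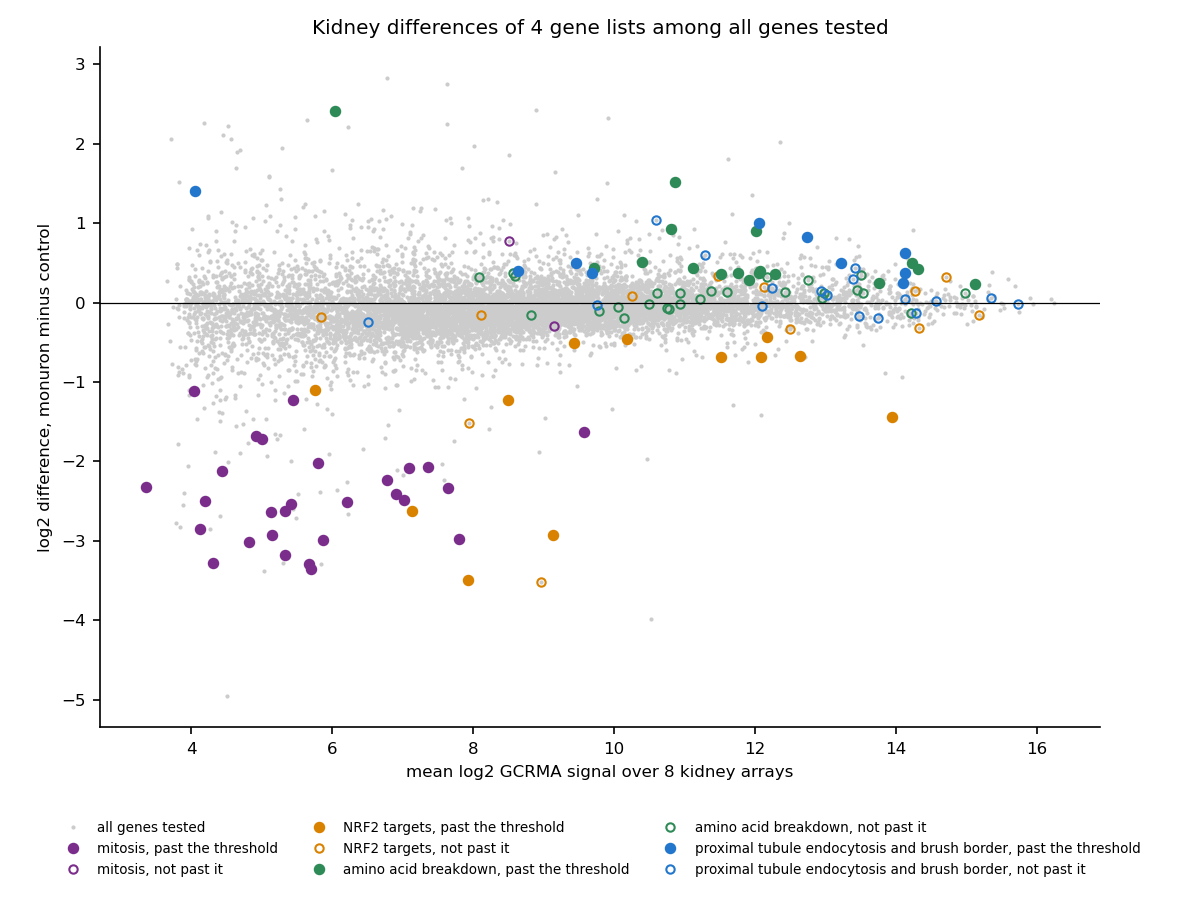
Mean log2 GCRMA signal over the 8 kidney arrays (x axis) against the log2 difference, monuron minus control (y axis), for the 9538 genes tested in grey and for members of 4 lists in colour, filled where they passed the threshold. The 28 filled mitotic genes all lie below 0 and the 17 filled amino acid breakdown genes all lie above 0.

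Of 29 tubule injury genes tested, 3 fell and 2 rose past the threshold, shares near those over all genes tested (6.33% lower, 3.87% higher). The median difference of the list was −0.31, against −0.08 over all genes tested, with 21 of the 29 below 0 and 8 above. Among the 3 that fell past the threshold is Havcr1, which entered through the control-labelled arrays alone. Krt8, a keratin of simple epithelia, had 10.97, 10.77, 10.59 and 10.97 in monuron-labelled kidneys, against 11.44, 11.21, 11.67 and 11.44 in control-labelled kidneys (difference −0.61, adjusted p = 0.0125). The members that rose were Tff3, a secreted trefoil peptide, at 0.91 (adjusted p = 0.00288, but 0.0659 in the joint fit), and Kl, which encodes Klotho, the co-receptor of the phosphate hormone FGF23. Kl had 8.86, 9.21, 8.62 and 8.44 in monuron-labelled kidneys and 8.04, 8.12, 7.11 and 6.69 in control-labelled kidneys, without overlap (difference 1.29, SE 0.32, adjusted p = 0.0328). Kl did not pass with no filter on dim genes or when monuron replicate 1, 2 or 3 or control replicate 3 or 4 was left out (highest adjusted p 0.102). Lcn2, the lipocalin also called NGAL, differed by −1.39 (adjusted p = 0.0951), Spp1, or osteopontin, by −0.56 (adjusted p = 0.299) and Clu, or clusterin, by −0.29 (adjusted p = 0.39). Of the list, 1 member fell without control replicate 3, and 1 member rose without monuron replicate 1, 2 or 3 or control replicate 3 or 4.

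Of 19 p53 target genes tested, 5 fell and none rose, where 6.33% fell and 3.87% rose over all genes tested. Gdf15, a circulating stress hormone, had 3.82, 3.01, 3.38 and 4.46 in monuron-labelled kidneys, against 6.58, 5.97, 7.80 and 7.46 in control-labelled kidneys. Its groups did not overlap, and the difference was −3.28 (SE 0.43, adjusted p = 0.00306). Cdkn1a, which encodes the cell cycle inhibitor p21, was 2.77-fold lower (adjusted p = 0.0091), and Plk2, a kinase, was 2.53-fold lower (adjusted p = 0.00173). Both had groups without overlap. Mdm2, the ubiquitin ligase of p53, differed by −0.17 (adjusted p = 0.465), and Ccng1 by −0.05 (adjusted p = 0.784). Without control replicate 3, in the joint fit, or with only genes above the median on all arrays, 3 members fell.

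Immediate early genes, whose transcripts rise within minutes of a growth or stress signal, had 7 of 24 members tested past the threshold. All 7 were lower in monuron-labelled kidneys. Over all genes tested 6.33% fell and 3.87% rose. The median difference of the list was −0.43, and between 5 and 9 members fell with 1 array left out. Myc, a growth regulator, had 5.08, 5.38, 4.82 and 5.05 in monuron-labelled kidneys, against 7.36, 6.88, 8.32 and 6.84 in control-labelled kidneys (difference −2.27, SE 0.30, adjusted p = 0.00363). Egr1, a zinc finger factor, had 6.84, 7.18, 6.49 and 5.65 in monuron-labelled kidneys and 8.98, 7.87, 9.08 and 8.36 in control-labelled kidneys (difference −2.03, adjusted p = 0.00932). In both genes control replicates 1 and 3 had the highest values. Ccn1, a matricellular protein, was 3.02-fold lower and Maff, a small Maf factor that pairs with NRF2, was 3.83-fold lower (adjusted p = 0.00195 and 0.00586).

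Of 24 NRF2 target genes tested, 12 fell and none rose, with a median difference of −0.48. Over all genes tested 6.33% fell and 3.87% rose. Nqo1, quinone reductase, had 7.29, 7.61, 7.33 and 8.43 in monuron-labelled kidneys, against 10.22, 10.27, 10.81 and 11.08 in control-labelled kidneys, a 7.62-fold difference (adjusted p = 0.000915). Srxn1, which repairs oxidised peroxiredoxins, had 5.73, 5.40, 5.79 and 7.81 in monuron-labelled kidneys and 9.68, 9.48, 10.13 and 9.40 in control-labelled kidneys (difference −3.49, SE 0.46, adjusted p = 0.00334, and −2.13 with its probe sets averaged). Monuron replicate 4 was the highest of its group for both genes, yet stayed below every control-labelled kidney. Abcc2, the apical efflux pump for glutathione and glucuronide conjugates, had 5.09, 5.82, 5.84 and 6.54 in monuron-labelled kidneys, against 8.84, 8.02, 8.83 and 8.12 in control-labelled kidneys (difference −2.63, adjusted p = 0.00173). Hmox1, heme oxygenase, was 2.15-fold lower, and Sqstm1, the autophagy receptor p62, differed by −0.68 (adjusted p = 0.0132 and 0.00477). With its probe sets averaged the difference of Sqstm1 was −0.26. With 1 array left out, between 9 and 13 list members fell.

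NRF2 is known to bind antioxidant response elements, whose core is TGACNNNGC. These letters were found on either strand within 250 bases before the start site in 4 of the 21 NRF2 targets tested that had a promoter sequence (19%), against 10.2% of all promoters and 12.8% of the promoters of genes tested. The 2 members past the threshold that held the core and had the largest differences are the glutathione transferases Gstp1 and Gsta3, shown as above with the core in capitals; in Gstp1 the core overlaps TGACTCA, the letters bound by AP-1.
Gstp1, chr1:210769706-210769955 (- strand): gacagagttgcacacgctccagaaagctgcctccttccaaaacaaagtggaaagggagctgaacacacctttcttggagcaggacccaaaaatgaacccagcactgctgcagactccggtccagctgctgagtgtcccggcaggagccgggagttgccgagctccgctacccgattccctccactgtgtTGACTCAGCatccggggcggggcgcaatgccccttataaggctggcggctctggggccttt
Gsta3, chr9:31154739-31154988 (+ strand): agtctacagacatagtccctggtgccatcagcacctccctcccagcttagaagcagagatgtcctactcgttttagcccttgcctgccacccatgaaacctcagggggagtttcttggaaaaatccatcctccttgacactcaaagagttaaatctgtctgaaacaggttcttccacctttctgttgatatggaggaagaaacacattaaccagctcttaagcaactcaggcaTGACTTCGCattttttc

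The last base of the core lay 53 bases before the start site in Gstp1 and 9 bases before it in Gsta3. Gsta3 had 8.04, 7.72, 7.43 and 8.34 in monuron-labelled kidneys, against 9.00, 8.92, 9.36 and 9.15 in control-labelled kidneys (difference −1.22, SE 0.19, adjusted p = 0.00586). Gstp1, named because of the promoter search, had 12.78, 12.77, 12.71 and 14.64 in monuron-labelled kidneys and 14.42, 14.74, 14.93 and 14.60 in control-labelled kidneys. Its groups overlapped through monuron replicate 4, and the call (adjusted p = 0.0444) was lost under 12 of 18 other settings, among them without monuron replicate 1, 2 or 3 or any control replicate (highest adjusted p 0.124).

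Other genes of foreign compound metabolism went in both directions, where 3.87% rose and 6.33% fell over all genes tested. Ugt2b7, a glucuronosyltransferase, had 7.84, 7.87, 8.31 and 10.08 in monuron-labelled kidneys, against 12.46, 12.27, 12.75 and 12.56 in control-labelled kidneys. Its difference of −3.98 (SE 0.43, adjusted p = 0.0012) was second in size to that of Havcr1 among the genes past the threshold. Of 32 conjugating enzymes tested, 7 fell and 1 rose; the count that fell lay between 2 and 11 with 1 array left out, and each of the 8 arrays moved it by more than 1.5 times. Of 19 cytochromes P450 of families 2, 3 and 4 tested, 3 fell and none rose, among them Cyp2e1, an ethanol-inducible form, with 13.54, 13.63, 13.49 and 12.95 in monuron-labelled and 14.32, 14.15, 14.44 and 14.23 in control-labelled kidneys (difference −0.88, adjusted p = 0.00608). Of 31 aldehyde, carbonyl, epoxide and flavin enzymes tested, 4 rose and 1 fell, and 2 rose without monuron replicate 2 or 3 or control replicate 3, while 2 fell without monuron replicate 4. The member that fell was Ephx1, the microsomal epoxide hydrolase, with a difference of −0.68 (adjusted p = 0.00608). Cyp1a1, the classical target of the aryl hydrocarbon receptor, did not pass, with 6.37, 7.06, 5.66 and 8.83 in monuron-labelled and 6.80, 8.24, 8.21 and 5.31 in control-labelled kidneys (adjusted p = 0.917). Its groups overlapped over most of their range.

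Of 27 proximal tubule genes of protein uptake and the brush border tested, 10 rose, none fell and 17 did not pass. Over all genes tested 3.87% rose and 6.33% fell. Of the 27, 7 had a difference below 0, and the median difference was 0.25. Cubn, the receptor cubilin, had 12.47, 12.62, 12.55 and 12.62 in monuron-labelled kidneys, against 11.54, 11.64, 11.38 and 11.69 in control-labelled kidneys, a 2.01-fold difference (SE 0.08 on the log2 scale, adjusted p = 0.000251). Its partner Lrp2, or megalin, had 14.24, 14.43, 14.49 and 14.61 in monuron-labelled kidneys and 13.83, 13.95, 13.67 and 13.81 in control-labelled kidneys (difference 0.63, adjusted p = 0.00372, but 0.113 in the joint fit). The spread within groups was small beside the differences of both receptors. Anpep, aminopeptidase N, was 1.78-fold higher (adjusted p = 0.00412). Ace, angiotensin-converting enzyme, is among the 10 but had all 4 control-labelled values below the array median and entered the test only through the monuron-labelled arrays. Its values were 4.46, 4.12, 4.61 and 5.84 in monuron-labelled kidneys and 3.05, 3.82, 3.27 and 3.26 in control-labelled kidneys. Ace lost its call without control replicate 1, 3 or 4, with no filter and with values set to the median (highest adjusted p 0.119). The list count was 4 without monuron replicate 3 or control replicate 3, and 6 without monuron replicate 2 or control replicate 4 or with no filter.

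Transporters of the same segment changed unevenly. Over all genes tested 3.87% rose and 6.33% fell, the shares to set beside these counts. Of 27 proximal tubule solute transporters tested, 2 rose, none fell and 25 did not pass. Of the 27, 23 had a difference above 0 and 4 below, with a median difference of 0.09. The mean log2 signal of the 28 members on the array lay between 11.52 and 11.57 in monuron-labelled and between 11.26 and 11.40 in control-labelled kidneys. Slc34a1 itself differed by 0.09 (adjusted p = 0.404). Slc6a18, which takes up glycine and other neutral amino acids, had 11.08, 11.21, 11.31 and 11.74 in monuron-labelled kidneys, against 10.55, 10.76, 10.29 and 9.90 in control-labelled kidneys (difference 0.96, adjusted p = 0.0161). No solute transporter passed without control replicate 3, and Slc6a18 then had an adjusted p of 0.0564; 1 passed without monuron replicate 3 or control replicate 4, 4 without monuron replicate 4 and 5 without control replicate 2. Of 27 drug and organic ion transporters, 6 rose and 2 fell. Slco1a1, an organic anion carrier of the apical membrane, had 10.80, 10.74, 11.19 and 11.60 in monuron-labelled kidneys, against 8.80, 9.57, 8.36 and 8.32 in control-labelled kidneys (difference 2.32, SE 0.28, adjusted p = 0.0022). Abcc4, an efflux pump like Abcc2, was 1.37-fold lower (adjusted p = 0.00863, but 0.421 in the joint fit). Slc22a2, the basolateral organic cation carrier, differed by 0.82 (adjusted p = 0.0487), and this call was lost under 11 of 18 other settings, among them without monuron replicate 2 or 3 or any control replicate. The count of transporters that rose was 2 without monuron replicate 3 and 3 without monuron replicate 2 or control replicate 2, 3 or 4, and 4 fell without monuron replicate 4.

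None of 14 loop of Henle, 12 distal tubule, 14 principal cell and 10 intercalated cell genes tested passed, although 2 distal genes rose without control replicate 1, 1 principal cell gene fell without control replicate 2 and 1 intercalated cell gene rose without monuron replicate 4. Umod differed by −0.09 (adjusted p = 0.376), the loop transporter Slc12a1 by 0.24 (adjusted p = 0.177), the distal transporter Slc12a3 by −0.22 (adjusted p = 0.31, but 0.021 without control replicate 2) and the collecting duct water channel Aqp2 by 0.08 (adjusted p = 0.841). Fibroblast and smooth muscle genes (15 tested), circadian genes (19) and MHC class II genes (7) also had none past the threshold with all 8 arrays; without 1 array, a fibroblast gene rose (monuron replicate 4) and a circadian gene rose (monuron replicate 1) or fell (monuron replicate 4 or control replicate 1). In whole tissue, fewer cells of a type and less RNA per cell cannot be told apart. A gene that misses the threshold with 4 arrays in a group is not shown to be equal.

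**Figure D3:**
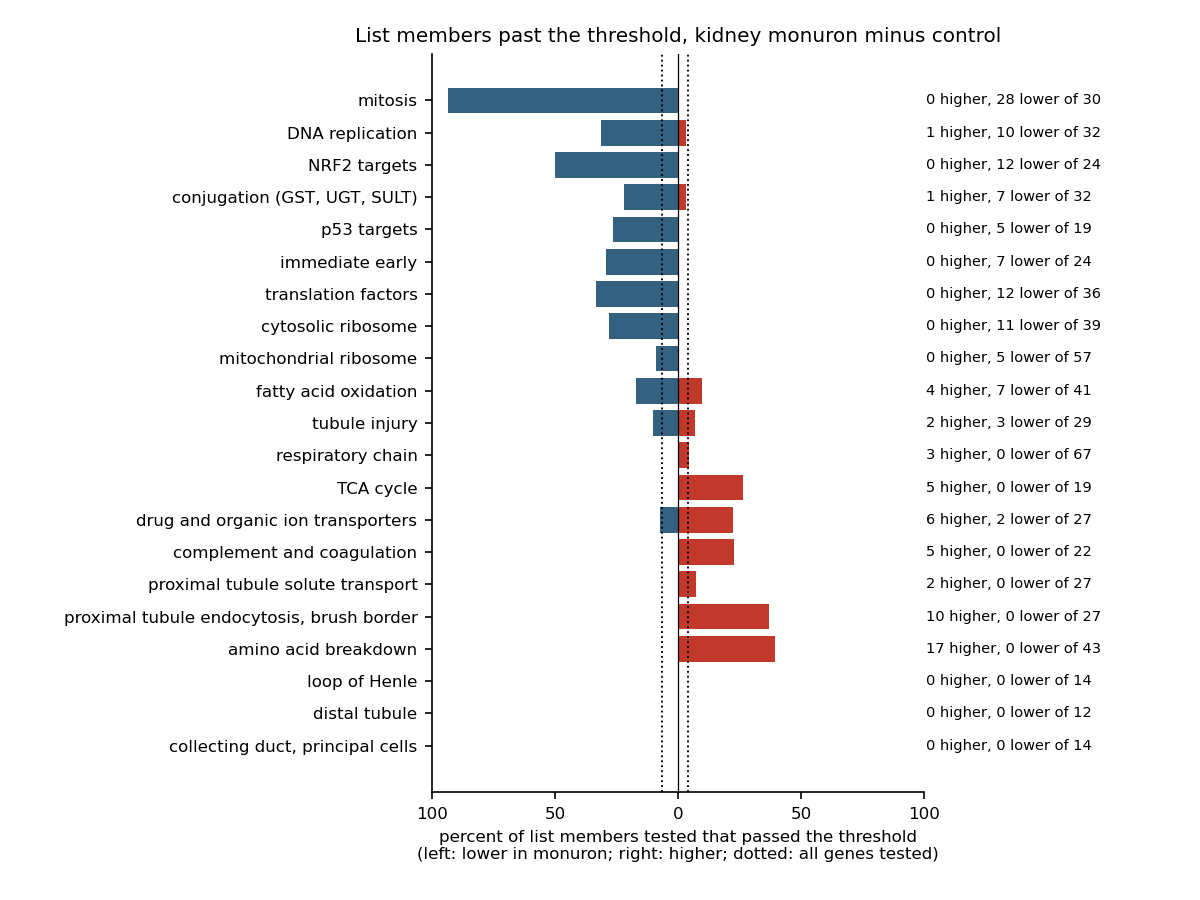
Percent of the tested members of 21 gene lists that passed the threshold, to the right where higher and to the left where lower in monuron-labelled kidneys, with counts at the right edge and dotted lines at the shares over all genes tested (3.87% higher, 6.33% lower). Mitosis has 28 lower of 30 and amino acid breakdown 17 higher of 43. The loop of Henle, distal tubule and principal cell lists have none with all 8 arrays.

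Of 43 enzymes of amino acid breakdown tested, 17 rose, none fell and 26 did not pass, where 3.87% rose and 6.33% fell over all genes tested. Of the 43, 9 had a difference below 0, and the median difference was 0.25. Dmgdh, dimethylglycine dehydrogenase of choline breakdown, had 11.60, 11.51, 11.66 and 11.73 in monuron-labelled kidneys, against 10.08, 10.37, 9.92 and 10.06 in control-labelled kidneys (difference 1.52, SE 0.10, adjusted p = 9.97e-05). Acadsb, which oxidises the carbon chain of isoleucine, had 7.75, 7.78, 7.02 and 6.43 in monuron-labelled kidneys and 5.23, 5.55, 4.61 and 3.93 in control-labelled kidneys (difference 2.41, adjusted p = 0.00716). Pcca, the biotin subunit of propionyl-CoA carboxylase, and Mmut, methylmalonyl-CoA mutase, both act in the breakdown of propionate. Pcca had 11.26, 11.26, 11.27 and 11.33 in monuron-labelled kidneys, against 10.30, 10.51, 10.35 and 10.23 in control-labelled kidneys, and Mmut was 1.87-fold higher (adjusted p = 0.00424). Each of these 4 genes had separate groups. The count was 8 without control replicate 3, 9 without monuron replicate 3, and 11 without control replicate 4.

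Of 10 purine and pyrimidine breakdown genes tested, 3 rose and 1 fell, where 3.87% rose and 6.33% fell over all genes tested. The enzymes of the 3 steps of pyrimidine breakdown were higher, though the call of 1 of them, Dpys, was lost under 7 of 18 other settings. Dpyd, dihydropyrimidine dehydrogenase, which takes the first and rate-limiting step and clears the drug 5-fluorouracil, had 8.29, 7.86, 8.34 and 8.28 in monuron-labelled kidneys, against 5.46, 5.45, 5.22 and 5.32 in control-labelled kidneys. This 7.10-fold difference (2.83, SE 0.13) had an adjusted p of 1.91e-05, the smallest of all genes tested. Dpys, dihydropyrimidinase, which takes the second step, had 11.04, 10.69, 10.49 and 11.12 in monuron-labelled kidneys and 10.38, 10.36, 9.84 and 10.14 in control-labelled kidneys (difference 0.65, adjusted p = 0.0335). Upb1, which takes the third step, had 13.18, 13.18, 13.12 and 13.20 in monuron-labelled kidneys, against 12.69, 12.87, 12.62 and 12.72 in control-labelled kidneys (difference 0.44, adjusted p = 0.00372). The difference was smaller at each later step, which was not tested. Dpys lost its call without monuron replicate 1, 2 or 4 or control replicate 3 or 4 (highest adjusted p 0.0937), with no filter or without the eBayes trend. The gene that fell did not pass without monuron replicate 1, 2 or 3 or control replicate 1, 3 or 4.

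In the citric acid cycle 5 of 19 genes tested rose and none fell, where 3.87% rose and 6.33% fell over all genes tested. Suclg2, a subunit of succinyl-CoA synthetase, averaged 13.68 ± 0.05 in monuron-labelled and 13.14 ± 0.09 in control-labelled kidneys (SD, n = 4 each; difference 0.54, adjusted p = 0.00131). The count was 2 without control replicate 3 and 3 without monuron replicate 1, 2 or 3 or control replicate 1 or 4. Fatty acid oxidation genes were mixed, with 4 of 41 higher and 7 lower. Cpt1a, which carries fatty acids into mitochondria, had 12.41, 12.55, 12.34 and 12.38 in monuron-labelled and 12.80, 12.74, 12.82 and 12.85 in control-labelled kidneys (difference −0.38, adjusted p = 0.00591), but 0.022 when all its probe sets were averaged, and it missed the threshold in the joint fit (adjusted p = 0.0865). Vnn1, a pantetheinase raised by PPARalpha, was 1.85-fold lower, whereas Hsd17b4, the peroxisomal bifunctional enzyme, was 1.48-fold higher (adjusted p = 0.00372 and 0.00479). The count of fatty acid oxidation genes that rose was 2 or 1 without each of the 8 arrays in turn. Of 67 respiratory chain genes tested, 3 rose, a share near the 3.87% over all genes tested, and none fell, with a median difference of 0.01. None passed without monuron replicate 3 or control replicate 3, and 1 passed without monuron replicate 1 or control replicate 4.

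Some genes of the translation machinery fell by small amounts. Of 39 cytosolic ribosomal proteins tested, 11 fell and none rose, and 38 of 39 had a difference below 0, with a median of −0.17. Rpl5, a large subunit protein, had 14.33, 14.33, 14.30 and 14.34 in monuron-labelled kidneys, against 14.53, 14.58, 14.67 and 14.61 in control-labelled kidneys (difference −0.27, adjusted p = 0.0091). Of 36 translation factors, 12 fell and none rose. Eif6, which keeps the large subunit from joining too early, differed by −0.38 (adjusted p = 0.0091), and Eef1d, an elongation factor subunit, by −0.34 (adjusted p = 0.00591). Both had groups without overlap. Of 57 mitochondrial ribosomal proteins, 5 fell, a share near the 6.33% over all genes tested, and their median of −0.11 was near the −0.08 over all genes. These counts changed with single arrays: the ribosomal count was 2 without monuron replicate 3, 3 without control replicate 3, 5 without monuron replicate 1 and 6 without control replicate 4. The factor count was 4 without monuron replicate 3 or control replicate 3 and 5 without monuron replicate 1 or 2, and the mitochondrial count was 0 or 1 without any 1 of monuron replicates 1, 2 and 3 and control replicates 1, 2 and 3. Without the eBayes trend the ribosomal, factor and mitochondrial counts were 2, 5 and 1, and with array weights the ribosomal count was 17.

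Some genes past the threshold are known for strong expression in liver; they were picked by the naming rule and form no list. Apoh, a plasma apolipoprotein, had 6.89, 7.37, 7.55 and 7.51 in monuron-labelled kidneys, against 5.66, 5.88, 4.62 and 4.34 in control-labelled kidneys (difference 2.21, adjusted p = 0.00586). Gc, the vitamin D binding protein, was 3.49-fold higher and Rgn, the intracellular calcium-binding protein regucalcin, was 4.07-fold higher (adjusted p = 0.00349 and 0.00144). Agt, angiotensinogen, had 8.27, 8.24, 9.10 and 9.13 in monuron-labelled kidneys and 7.25, 7.76, 6.93 and 6.01 in control-labelled kidneys (difference 1.70, adjusted p = 0.0193). Agt and F2, prothrombin (difference 1.19, adjusted p = 0.0173), each lost the call without monuron replicate 3 or control replicate 3. Rup2, a urinary protein, had 8.20, 9.19, 10.59 and 8.02 in monuron-labelled kidneys, against 6.66, 6.07, 7.69 and 4.58 in control-labelled kidneys (difference 2.75, adjusted p = 0.0365), and this call was lost under 9 of 18 other settings (1.82 with its probe sets averaged), including without monuron replicate 1, 2 or 3 or control replicate 1, 2 or 4.

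Of 24 hepatocyte markers on the array, 10 were tested and 1, F2, rose; of the other 9, which did not pass, Fgb, a fibrinogen chain, had the lowest difference at −1.32 (adjusted p = 0.15) and Alb the highest at 2.43 (adjusted p = 0.0606). In all 6 of the 10 had a difference above 0 and 4 below. Alb, albumin, had 8.93, 10.54, 11.84 and 9.13 in monuron-labelled kidneys, against 6.30 to 9.24 in control-labelled kidneys, where liver arrays had 16.27 to 16.34. Ahsg, fetuin-A, had 2.95, 5.27, 6.57 and 3.68 in monuron-labelled kidneys and 2.93, 2.85, 3.32 and 2.77 in control-labelled kidneys. Rup2, Alb and Ahsg were thus highest in monuron replicates 3 and 2 of their group. Apoa1, a defining liver apolipoprotein, lay between 2.31 and 2.36 in monuron-labelled and between 2.31 and 2.33 in control-labelled kidneys, against 14.91 to 15.13 in liver. Other untested members were unlike it on monuron replicate 3. There Serpina1 had 5.98, Hp 6.42 and Ambp 5.20, against at most 3.68, 3.59 and 2.76 in control-labelled kidneys. Tat and Mat1a, at 2.31 and 2.41 on that array, were near background. These members were named after their values were seen. The summed signal of the hepatocyte list ranged from 15.21 to 15.50 in monuron-labelled and from 15.22 to 15.45 in control-labelled kidneys, as the log2 of the sum over 24 genes. This sum is set mostly by the brightest members. The mean log2 signal of the same 24 genes was 5.01, 5.48, 6.25 and 5.00 in monuron-labelled kidneys. In control-labelled kidneys it was 5.13, 4.86, 5.29 and 4.70. The part of such transcripts in the higher values was not tested. Gc and Rgn, unlike Alb, were highest in monuron replicate 4.

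Genes past the threshold differed in length by direction. The length classes were set after the values were seen, from the span of each gene in RefSeq's GRCr8 annotation. Genes that rose had a median length of 59.3 kb and genes that fell one of 13.2 kb, beside 24.1 kb over all genes tested. Of 209 genes tested that were longer than 300 kb, 66 (31.6%) rose and 5 (2.39%) fell, with a median difference of 0.25. Of 1088 genes shorter than 5 kb, 18 (1.65%) rose and 103 (9.47%) fell, with a median of −0.12. The array medians of the longest class, as deviations from each gene's mean over the 8 arrays, lay between 0.13 and 0.21 in monuron-labelled and between −0.17 and −0.14 in control-labelled kidneys. The median of that class was 0.24 among its brighter and 0.27 among its dimmer genes, and 0.25 with arrays centred on their medians. In liver 12 of 193 genes longer than 300 kb rose and 2 fell, with a median difference of 0.14.

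Among the longest genes past the threshold was Fhit, a diadenosine triphosphate hydrolase at a known fragile site, which spans 1507.5 kb. It had 7.11, 6.57, 7.08 and 6.40 in monuron-labelled kidneys, against 4.85, 4.33, 4.11 and 4.70 in control-labelled kidneys (difference 2.29, adjusted p = 0.000965). Sugct, a mitochondrial CoA transferase that handles glutarate, spans 858 kb and had 9.80, 9.97, 10.05 and 10.12 in monuron-labelled kidneys and 8.34, 8.42, 8.24 and 8.35 in control-labelled kidneys (difference 1.65, SE 0.09, adjusted p = 2.52e-05). Neither gene had overlapping groups. Ccser1 (1237 kb), with a coiled coil and a serine-rich stretch, and Fgf13 (526 kb), an intracellular member of the FGF family, differed by 1.89 and 2.24 (adjusted p = 0.000983 and 0.000998). Ccser1 entered the test only through the monuron-labelled arrays, so the filter favoured a difference for it. Slc25a21, the mitochondrial carrier of 2-oxodicarboxylates, differed by 1.95 (adjusted p = 0.00328). Dpyd, described above, spans 866 kb and Pcca 340 kb. Both breakdown genes are thus in the longest class, and the part of length in their differences was not tested.

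**Figure D4:**
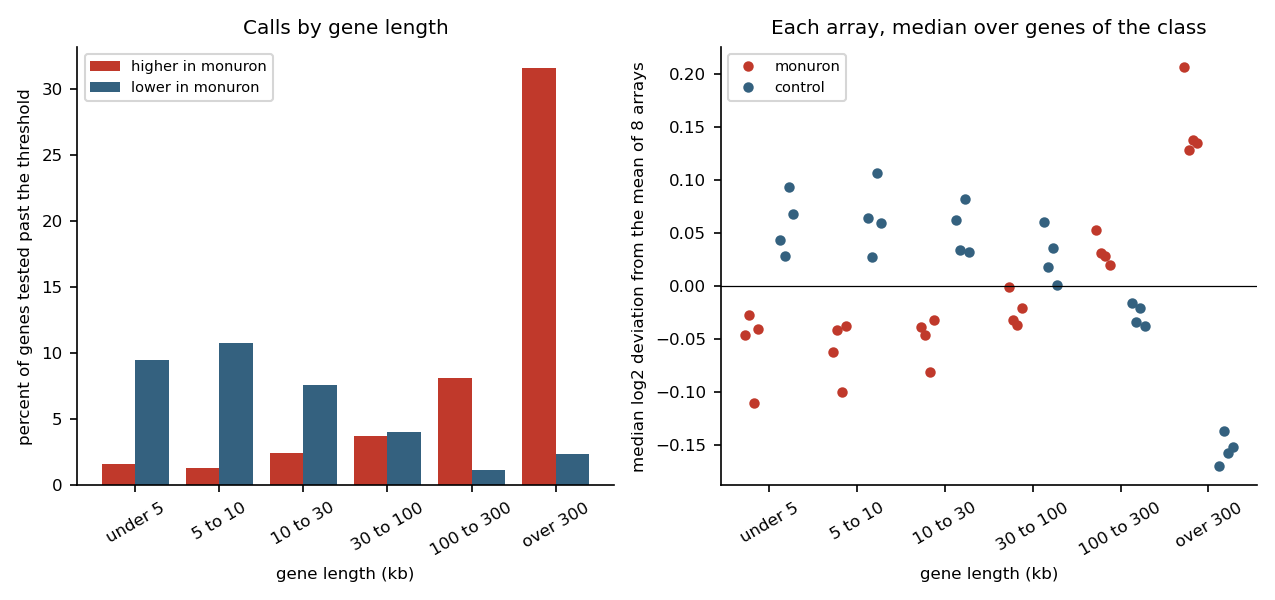
Left, percent of genes tested that were higher or lower in monuron-labelled kidneys past the threshold (y axis) by gene length in kb (x axis); right, each array's median log2 deviation from the mean of 8 arrays in the same classes, monuron-labelled left of control-labelled. Genes over 300 kb had 31.6% higher and 2.39% lower, and their 4 monuron-labelled medians lay above all 4 control-labelled medians.

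Whether the kidney differences were particular to kidney was asked of the interaction of organ and treatment in a fit of the 8 kidney and 8 liver arrays. Of 10108 genes tested, 271 (2.68%) passed; the kidney difference was above the liver difference for 161 (1.59%) and below it for 110 (1.09%). Dpyd rose in both organs but by more in kidney, 2.83 against 0.87 in liver, a difference between organs of 1.96 (SE 0.21, adjusted p = 0.000151). Havcr1 lay at background on all liver arrays, with means of 2.07 in monuron-labelled and 2.06 in control-labelled livers, and its organ difference was −4.97, or −3.09 with values below the array median set to it, given as a description. Abcc2 differed by −2.63 in kidney and by 0.70 in liver, an organ difference of −3.32 (adjusted p = 0.000236). The liver levels of Abcc2 were 12.47 ± 0.31 in monuron-labelled and 11.78 ± 0.31 in control-labelled livers (SD, n = 4 each). Gdf15 (organ difference −3.36, adjusted p = 0.00122), Kif22 (−3.12, adjusted p = 7.68e-05), Cubn (1.09, adjusted p = 0.000672) and Fgf13 (2.30, adjusted p = 0.000333) also differed between organs. The organ counts changed with single arrays: without liver control replicate 3 the total became 501, and it was 143 without kidney control replicate 3, 152 without kidney monuron replicate 3, 175 without kidney control replicate 4 and 178 without liver control replicate 1.

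The kidney difference was above the liver difference for some genes of foreign compound metabolism. Aldh1a1, a retinal and aldehyde dehydrogenase, had 13.84, 13.90, 13.88 and 13.77 in monuron-labelled kidneys, against 13.99, 13.98, 14.03 and 14.01 in control-labelled kidneys, and the difference of −0.15 missed the threshold (adjusted p = 0.0646). In liver it differed by −2.02, and its organ difference of 1.87 had the smallest adjusted p of the interaction (4.5e-07). Akr7a3, an aflatoxin aldehyde reductase, differed by −0.32 in kidney and −2.15 in liver (organ difference 1.83, adjusted p = 0.00122). Without monuron replicate 4 its kidney difference was −0.49 and passed (adjusted p = 0.0187). Gsta3 fell in both organs, with differences of −1.22 in kidney and −3.14 in liver (organ difference 1.92, adjusted p = 0.00696). Cyp1a1 differed by −4.71 in liver, and its organ difference of 4.55 (adjusted p = 0.0454) was lost under 15 of 22 other settings, among them without monuron replicate 1, 2 or 4 or control replicate 1, 3 or 4 of kidney, or monuron replicate 1, 2 or 3 or control replicate 1, 2 or 4 of liver (highest adjusted p 0.0919). Nqo1 and Srxn1 fell in both organs, and their organ differences did not pass (adjusted p = 0.159 and 0.0925). In a fit of the liver arrays alone 293 of 9352 genes passed (3.13%), 103 higher (1.1%) and 190 lower (2.03%) in monuron-labelled livers. Of 8795 genes tested in both organs, 326 rose in kidney and 90 in liver. Of these 22 rose in both, which is 6.75% of those in kidney and 24.4% of those in liver. In the other direction 553 fell in kidney and 180 in liver, and 36 fell in both (6.51% and 20%). Opposite calls in liver were found for 3 genes that rose in kidney and 1 that fell. Whether these overlaps exceed chance was not tested.

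**Figure D5:**
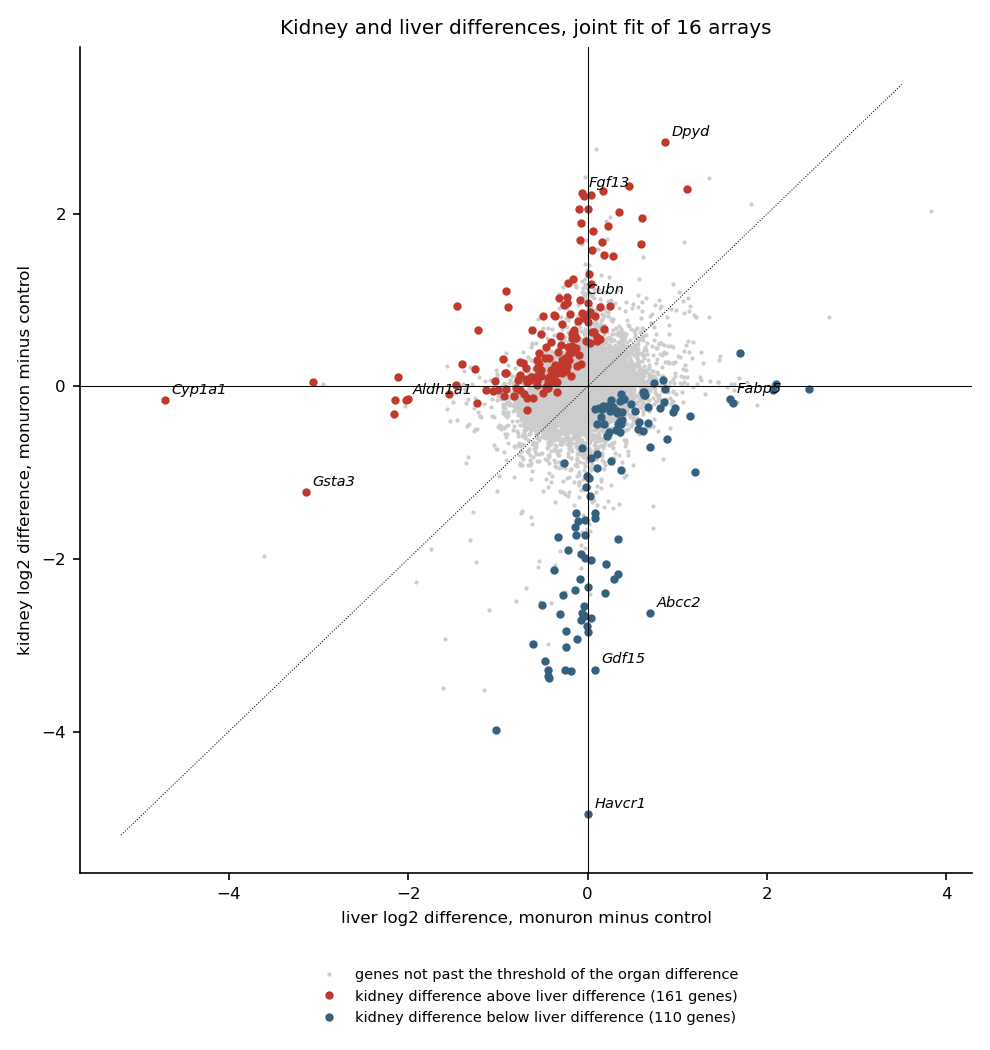
Log2 difference, monuron minus control, in kidney (y axis) against liver (x axis) for 10108 genes from the joint fit of 16 arrays, with genes whose differences differed between organs in red (161, kidney above liver) and blue (110, kidney below liver) and the line of equal differences dotted. Havcr1 is at −4.96 in kidney and near 0 in liver, while Aldh1a1 is at −2.02 in liver and −0.15 in kidney.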

How the data were processed

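Kidney RNA of 8 rats (4 labelled monuron, 4 labelled control) was hybridised to Affymetrix rat arrays. The authors deposited log2 values per probe set, made with GCRMA per the submitters' processing notes; which release was used is not known here. The method removes estimated background and normalizes between arrays, so values near 2 are background and ratios of dim genes are uncertain. Of 31099 probe sets, 57 were controls, 20826 had 1 gene symbol in the platform annotation, 436 several and 9780 none; only those with 1 symbol were used, which covered 14218 genes. Each gene was represented by its brightest probe set on average. A gene was tested if it was above its array's median on at least 4 arrays. Groups were compared with limma 3.58.1 (R 4.3.3), lmFit and eBayes with trend, with Benjamini-Hochberg adjustment over all genes tested. The organ comparison used the interaction in a fit of 16 arrays. The number of arrays limits the precision. The script was tested on simulated data.

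Named genes were, past the threshold and without overlap, the 15 largest differences each way, the 8 smallest adjusted p each way, up to 6 members of each of 56 lists by smallest p, a panel of kidney and monuron genes, and the 10 smallest adjusted p each way between organs. Melk and Kif11, Gstp1 and the tissue markers Ahsg, Apoa1, Serpina1, Hp, Ambp, Tat, Mat1a, Adipoq, Csf1r, Cd68, Cyp11a1 and Cyp11b1 lie outside that rule. The members and lists were chosen with earlier results of these data known. The labels give the replicate number no meaning, so the numbers were not used as pairs. Deviations of same-numbered kidney arrays correlated at −0.22 to 0.02, and those of unlike-numbered arrays at −0.36 to 0.35. The design text speaks of 8 rats whose kidneys and livers were taken, but no label ties a kidney array to a liver array. Deviations of kidney and liver arrays with equal treatment label and number correlated at 0.02 to 0.16. Part of the submitters' text names another compound for the cells, which are not used here.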

Additional observations from a re-analysis of the deposited data

Results flagged for a closer look

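On 8 of 178 sets of 4 kidney arrays (89 genes, 2 groups), 1 array stood apart from the other 3 by Dixon's test at the 95% level; chance flags about 1 in 20 such sets. Monuron replicate 4 stood apart for Srxn1 (7.81, others 5.40 to 5.79), Gstp1 (14.6, others 12.7 to 12.8), Bcl2l11 (6.35, others 6.70 to 6.75) and Pcca (11.33, others 11.26 to 11.27). Monuron replicate 1 stood apart for Eml6 (6.57, others 5.25 to 5.39) and Ccser1 (5.21, others 5.66 to 5.76), and monuron replicate 2 for Dpyd (7.86, others 8.28 to 8.34). Control replicate 3 stood apart for Bcl2l11 (7.10, others 7.75 to 7.82).

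By the interaction term, the kidney difference was below the liver difference for Gdf15 (−3.36), Abcc2 (−3.32), Kif22 (−3.12), Racgap1 (−2.56) and Fabp5 (−1.73). The kidney difference was above the liver difference for Fgf13 (2.30), Dpyd (1.96), Aldh1a1 (1.87), Akr7a3 (1.83), Cubn (1.09) and Upb1 (0.63). Fabp5 did not pass in kidney, where its difference lay between −0.23 and −0.08 under 18 other settings (adjusted p from 0.12 to 0.643). Most of its organ difference thus lay in liver. The other flagged genes are given as a description. Havcr1 (−4.97, or −3.09 with values below the array median set to it) and Cdc20 (−3.03) entered the kidney test only through the control-labelled arrays. Ccser1 (1.97) entered it only through the monuron-labelled arrays.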

How the results depend on the processing

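Under 9 other settings of filter, centring, floor, probe set summary, eBayes, array weights and joint fit, between 683 and 1285 genes passed in kidney; the count was 350 with a replicate block and 347 to 917 with 1 array left out. The organ comparison passed 117 genes with a replicate block, 193 with the rat as a block (chosen after seeing the data) and 143 to 501 with 1 array left out; its share of genes with kidney above liver was 161 of 271, against 172 of 255 with centred arrays. Of 73 named genes past the threshold, 54 passed under every setting that could test them, 72 kept their direction, and 8 of the 19 that lost the call did so only with an array left out or the replicate block. Cpt1a reversed to 0.022 with all probe sets averaged. Among genes not past the threshold, leaving out 1 array gave Ccng1 −0.0996 (without control replicate 4) to 0.049 (without control replicate 1), Aqp2 −0.044 (without monuron replicate 1) to 0.26 (without control replicate 4), with −0.03 without control replicate 1, and Cyp1a1 −0.77 (without monuron replicate 4) to 0.28 (without monuron replicate 3), reversed also without monuron replicate 1 or control replicate 2 or 3. Same-numbered arrays share only a number; with the replicate block Cdt1, Prim2, Hmox1, Rpl5, Slc6a18, Slc22a2, Ace, Agt, F2 and Gstp1 lost their calls in kidney, as did Gsta3 and Cyp1a1 between organs, and the block changed no other call of the named genes in these comparisons. The cause of these changes was not tested. Genes near background have no reliable ratio: for Havcr1 the difference of −4.96 became −3.06 with dim values set to the array median.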
